A study of Mus musculus with 18 samples.

Results

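Genes of the endoplasmic reticulum (ER) stress response were followed, 10 in number, through all 9 groups of a mouse RNA-seq series. They were listed by name as Hspa5, Hsp90b1, Calr, Sdf2l1, Dnajb9, Herpud1, Xbp1, Atf4, Ddit3 and Trib3, and 10 of 10 were found among the 54496 gene symbols of the deposited tables. The study sorted cells from the skin of female mice, with 2 libraries in each group: dermal papilla cells (DP), a mesenchymal cluster that signals to the follicle, and stem cells of the follicle epithelium (HFSC), which regrow the hair. Its title asks how corticosterone, the main glucocorticoid of the mouse, acts on stem cell quiescence. Wild-type C57BL/6 mice were adrenalectomised (ADX), adrenalectomised and fed corticosterone (ADX+CORT, HFSC only) or sham-operated (Sham). In a separate experiment on a 129/C57BL/6 background, mice carrying Pdgfra-CreER and GR fl/fl (GR KO, loss of the glucocorticoid receptor gene Nr3c1) were set against wild-type mice (Control). Both groups were injected with tamoxifen for 6 days, so that the injection is shared by both. The CreER and the floxed alleles are in GR KO alone, and their own effects cannot be told apart from loss of the receptor. Pdgfra marks dermal mesenchyme and not the epithelium, so HFSC of GR KO mice are cells next to a mesenchyme that lost the receptor. The surgery and deletion experiments differ in strain and in tamoxifen, and a difference in level between them cannot be told apart from these.

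The ER folds and modifies proteins that a cell secretes or places in its membranes. When unfolded proteins build up there, the sensors IRE1, PERK and ATF6 start the unfolded protein response: ATF6 and the spliced form of XBP1 raise chaperones and degradation factors, while PERK slows translation by phosphorylating eIF2alpha and so favours the translation of ATF4, which raises CHOP (Ddit3) and TRIB3. Fibroblasts that secrete collagen and other matrix proteins depend on this folding machinery, and its chaperones are abundant in them without any stress.

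Promoters are shown for the genes whose DP libraries were lower in ADX than in Sham and higher in GR KO than in Control without overlap and which carry a published element of this response. The ER stress response element (ERSE, searched as CCAAT and CCACG with any 9 bases between them) is bound by ATF6 and XBP1 together with NF-Y, and ERSE-II (ATTGG and CCACG with any 1 base between them) is a related element first described in the HERPUD1 promoter of human cells. All 10 genes matched a RefSeq promoter. Each line gives the 250 bases before the transcription start of the RefSeq annotation on GRCm38.p6, in the direction of the gene and capitals mark the fixed letters of the element.
Hspa5 (chr2:34771840-34772089, plus strand): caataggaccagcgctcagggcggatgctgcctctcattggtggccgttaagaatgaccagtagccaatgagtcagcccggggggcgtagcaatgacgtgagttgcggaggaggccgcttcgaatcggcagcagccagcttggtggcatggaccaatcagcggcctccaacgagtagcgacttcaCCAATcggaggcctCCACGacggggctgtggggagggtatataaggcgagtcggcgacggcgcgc
Hsp90b1 (chr10:86705445-86705694, minus strand): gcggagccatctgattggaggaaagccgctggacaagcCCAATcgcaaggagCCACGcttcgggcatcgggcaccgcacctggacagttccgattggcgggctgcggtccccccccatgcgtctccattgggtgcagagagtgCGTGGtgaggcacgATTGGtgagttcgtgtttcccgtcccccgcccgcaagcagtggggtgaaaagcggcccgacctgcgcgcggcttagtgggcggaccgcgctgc
Calr (chr8:84846932-84847181, minus strand): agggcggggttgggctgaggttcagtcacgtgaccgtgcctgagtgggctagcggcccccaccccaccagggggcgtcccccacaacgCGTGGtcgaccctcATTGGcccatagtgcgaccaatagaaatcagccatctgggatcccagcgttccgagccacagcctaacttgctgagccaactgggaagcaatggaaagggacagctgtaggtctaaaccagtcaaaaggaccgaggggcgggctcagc
Herpud1 (chr8:94386179-94386428, plus strand): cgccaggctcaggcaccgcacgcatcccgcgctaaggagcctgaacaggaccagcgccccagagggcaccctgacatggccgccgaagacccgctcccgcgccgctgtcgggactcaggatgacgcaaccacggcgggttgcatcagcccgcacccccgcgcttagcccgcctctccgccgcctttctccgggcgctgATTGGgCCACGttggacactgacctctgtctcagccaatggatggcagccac

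Hspa5 held ERSE at bases −65 to −47 from its start, on the strand of the gene. Calr held it on the opposite strand at −162 to −144, and Hsp90b1 held it on the strand of the gene at −212 to −194 and on the opposite strand at −107 to −89. Herpud1 held ERSE-II at −52 to −42. Searched on both strands, ERSE was present in 39 of 32851 RefSeq promoter windows of 300 bases (250 before the start and 50 after it), or 0.119%, and ERSE-II in 12 windows (0.0365%). The C/EBP-ATF response element bound by ATF4 (CARE, searched as TGATG and AA with any 1 base between them) was found in 3.97% of windows, among them Trib3 at 15 to 22 bases after the start and Herpud1 at −112 to −105, both on the opposite strand. The XBP1 element UPRE, searched as TGACG followed by TGG, stood in 0.676% of windows. The palindromic glucocorticoid response element, searched as AGAACA and TGTTCT with any 3 bases between them, stood in 3 windows (0.00913%). Neither was found in the windows of the 10 genes, which says only that these letters are not there. ERSE and ERSE-II did not overlap CARE in any of the 10 windows. A match is a run of letters and not a measured binding site. RefSeq starts differ from the ends of the GENCODE genes given below: of the bases before the start, 120 lie inside the GENCODE gene for Hspa5, 65 for Hsp90b1, 3 for Calr and 0 for Herpud1, and among the genes not printed 19 for Ddit3 and 250 for Dnajb9.

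**Figure D1:**
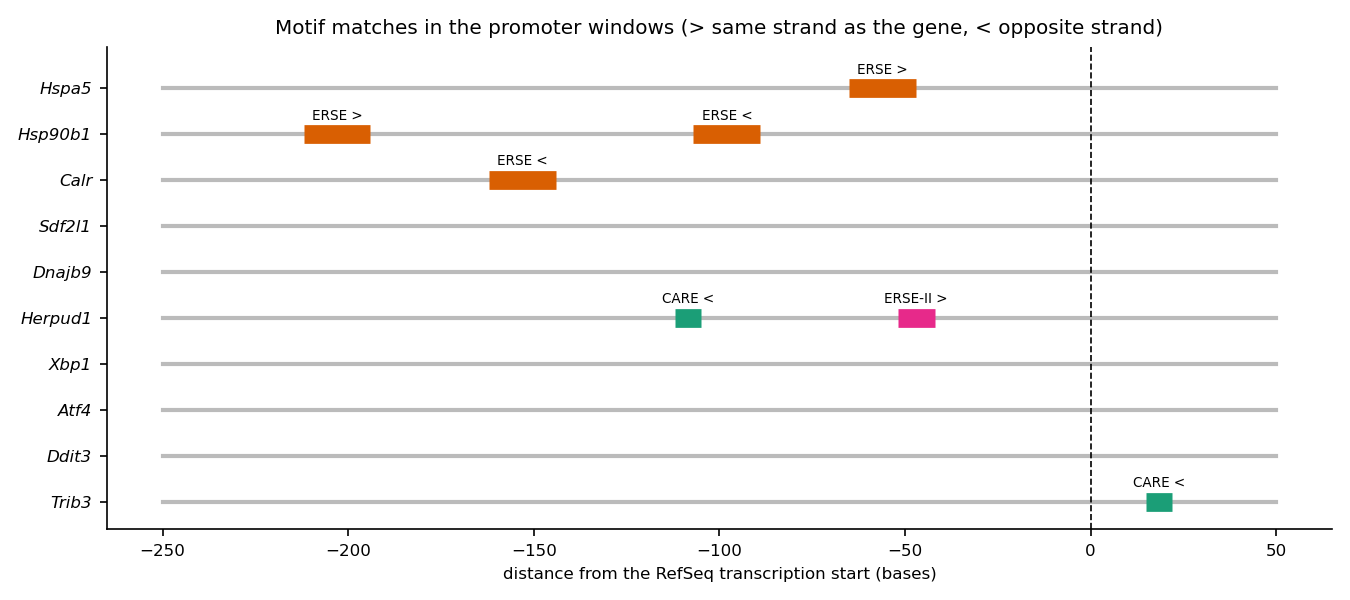
Positions of motif matches (coloured blocks) in the promoter windows of the 10 genes, in bases from the RefSeq transcription start (dashed line). ERSE or ERSE-II lies upstream of Hspa5, Hsp90b1, Calr and Herpud1, and CARE lies in the windows of Herpud1 and Trib3.

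Depth was 6194415 to 13941628 counts per DP library, with both ADX libraries the shallowest (6194415 and 7784320), and 14067139 to 33014976 per HFSC library. Levels are given as CPM, the usual per-library scaling of counts, here on TMM-scaled library sizes, and the cell types were counted differently and scaled apart. Nothing in the labels says that the libraries of a group came from separate animals, so the tests measure the spread between libraries. The DP genes Alpl, Corin and Sox2 were detected in every DP library (7.44 to 67.8, 9.66 to 99.6 and 4.02 to 10.7 CPM), and Cd34, Krt15 and Lgr5 in every HFSC library (663 to 2527, 11439 to 36208 and 178 to 406 CPM). Nr3c1, the deleted gene, had 137 and 111 CPM in GR KO DP, against 671 and 978 CPM in Control DP (log2 fold change −2.73, SE 0.38, edgeR adjusted p = 0.0212, range over the alternatives 1.28e-16 to 0.0589), and 243 and 170.03 CPM in GR KO HFSC, against 257 and 338 CPM in Control HFSC. Nr3c1 was thus also lower in GR KO HFSC without overlap, by a narrow gap, as were 19.1% of all genes there. In bulk RNA, fewer cells of a type and less RNA per cell cannot be told apart.

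All 10 genes passed the filter on low counts in both cell types. Levels between genes were compared per transcript length, as TPM. In DP the order by mean TPM was Calr (538), Hspa5 (469), Hsp90b1 (334), Xbp1 (279.5), Atf4 (183), Herpud1 (149), Ddit3 (67.6), Sdf2l1 (47.4), Dnajb9 (45.8) and Trib3 (1.93). HFSC had Calr (452), Hspa5 (303), Atf4 (221), Hsp90b1 (160.03), Xbp1 (132), Sdf2l1 (124), Herpud1 (100.3), Ddit3 (86.4), Dnajb9 (15.6) and Trib3 (3.55). Calr and Hspa5 were at the top in both populations, with Calr above 99.6% of all gene symbols in DP and 98.8% in HFSC, and Trib3, the pseudokinase induced late in the PERK branch, was at the bottom with 1 to 42 counts per DP library. Together the 10 genes held 0.193% and 0.236% of all counts in ADX DP, against 0.334% and 0.286% in Sham DP, and 0.296% and 0.298% in GR KO DP, against 0.183% and 0.208% in Control DP.

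In DP the ER chaperones differed in opposite directions in the 2 experiments, without passing the test in edgeR in either. Hspa5, Hsp90b1 and Calr were lower in both ADX libraries than in both Sham libraries and higher in both GR KO libraries than in both Control libraries, while the stress transcription factors Xbp1 and Atf4 overlapped in both comparisons. After adrenalectomy 9 of the 10 genes had a negative log2 fold change, with a median of −0.46, against a median of 0.08 over all 23463 genes tested. Libraries did not overlap for 6 lower genes and 1 higher gene, and over all genes the shares were 19.4% lower and 23.9% higher. After GR deletion 7 of the 10 were positive, with a median of 0.34 against 0.17 over all genes, and 5 genes were higher without overlap and 0 lower, against 31.6% and 20% of all genes.

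For ADX against Sham edgeR called 0 of the 10 genes at an adjusted p under 0.05, and 4 of all genes (0.017%). At an unadjusted p under 0.05 it had 3 of 10 (11.7% of all genes), and DESeq2 called 1, Hspa5 (1.86% of all genes). For GR KO against Control edgeR called 0 of the 10, and 361 of all genes (1.54%). At an unadjusted p under 0.05 it had 4 of 10 (15.2% of all genes), and DESeq2 called 2, Hspa5 and Herpud1 (5.92% of all genes).

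Hspa5 (chromosome 2, 34771970 to 34777547 on GRCm38) encodes BiP, the Hsp70 chaperone of the ER that holds the stress sensors inactive. It had 298 and 424 CPM in ADX DP, against 826 and 719 CPM in Sham DP. GR KO DP had 1064 and 950.2 CPM, against 417 and 491 CPM in Control DP. Both ADX libraries lay below every Sham library, both GR KO libraries lay above all other DP libraries, and Sham lay above Control, so the order by mean was GR KO, Sham, Control and ADX, with overlap between Control and ADX alone. The log2 fold change was −1.10 (SE 0.28, edgeR adjusted p = 0.24) after adrenalectomy, a mean 0.467 times that of Sham, and 1.15 (SE 0.28, edgeR adjusted p = 0.0757) after GR deletion, a mean 2.22 times that of Control. DESeq2 gave an adjusted p = 0.0136 and 0.00344 for them. Across the alternatives the first lay between −1.32 and −0.93 (adjusted p 0.0112 to 0.477) and the second between 0.88 and 1.24 (adjusted p 0.00344 to 0.512), and the sign never turned in these.

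Hsp90b1 (chromosome 10, 86690209 to 86705509) encodes GRP94, the Hsp90 of the ER lumen, which folds integrins and Toll-like receptors. It had 331 and 449 CPM in ADX DP, against 724 and 613 CPM in Sham DP. It had 717 and 629 CPM in GR KO DP, against 372 and 485 CPM in Control DP. Sham and GR KO overlapped at the upper level and Control and ADX at the lower. Its log2 fold changes were −0.78 (SE 0.28, edgeR adjusted p = 0.334) and 0.65 (SE 0.28, edgeR adjusted p = 0.305). A pseudogene on the opposite strand and 2 non-coding genes on its own strand overlap its locus, and reads of these could not be told apart from it.

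Calr (chromosome 8, 84841850 to 84846934) encodes calreticulin, the calcium-binding lectin chaperone for glycoproteins. The ADX DP libraries had 399.8 and 487 CPM, against 745 and 493 CPM in Sham DP, so that the gap to the nearer Sham library was small. GR KO DP had 755 and 756 CPM, against 410.1 and 490.0 CPM in Control DP, with a gap of more than the spread of either group. The log2 fold changes were −0.48 (SE 0.29, edgeR adjusted p = 0.55) and 0.75 (SE 0.29, edgeR adjusted p = 0.246).

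Among the factors that work with these chaperones, Sdf2l1 and Dnajb9 were lower in ADX DP and showed no separation in GR KO DP. Sdf2l1 (chromosome 16, 17130138 to 17132383), a partner of BiP that limits aggregation, had 24.5 and 21.3 CPM in ADX DP, against 50.4 and 55.0 CPM in Sham DP (log2 fold change −1.20, SE 0.38, edgeR adjusted p = 0.3). The GR KO DP libraries had 26.6 and 21.5 CPM, inside the range of 15.8 and 30.6 CPM in Control DP (0.05, SE 0.37, edgeR adjusted p = 1), and that value turned negative under several alternatives, median-of-ratios scaling among them (−0.04). Sham thus stood apart from the other 3 groups.

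Dnajb9 (chromosome 12, 44205559 to 44210326) encodes ERdj4, a J protein that recruits BiP to IRE1. It had 66.7 and 62.5 CPM in ADX DP, against 126 and 75.4 CPM in Sham DP (−0.64, SE 0.31, edgeR adjusted p = 0.471), and 44.0 and 60.7 CPM in GR KO DP, against 45.2 and 45.3 CPM in Control DP (0.21, SE 0.31, edgeR adjusted p = 0.825). All 4 libraries of the surgery experiment lay above all 4 of the deletion experiment.

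Herpud1 (chromosome 8, 94386438 to 94395377) encodes a membrane protein of the ER-associated degradation complex. It had 110.2 and 120.2 CPM in ADX DP, against 139.6 and 135 CPM in Sham DP, a narrow gap. GR KO DP had 199 and 276 CPM, against 127 and 106 CPM in Control DP, with both GR KO libraries above all other DP libraries. The log2 fold changes were −0.25 (SE 0.26, edgeR adjusted p = 0.733) and 1.03 (SE 0.26, edgeR adjusted p = 0.0887, DESeq2 adjusted p = 0.0269), and the second lay between 0.72 and 1.25 over the alternatives. An annotated antisense gene covers its first bases, so its reads are uncertain there.

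The transcription factors Xbp1 and Atf4 were lower by mean in ADX DP, as were the chaperones, but were not higher in GR KO DP. Their libraries overlapped in both comparisons, and no difference between genes was tested. Xbp1 (chromosome 11, 5520659 to 5525893), the target of IRE1, had 231 and 362 CPM in ADX DP, against 424 and 320.2 CPM in Sham DP. It had 329 and 344 CPM in GR KO DP, against 298 and 406 CPM in Control DP. Atf4 (chromosome 15, 80255184 to 80257541), the effector of the PERK branch, had 148 and 179.6 CPM in ADX DP, against 250.02 and 175 CPM in Sham DP. It had 152 and 206 CPM in GR KO DP, against 197 and 219.6 CPM in Control DP. For both genes every pair of neighbouring groups overlapped. Their log2 fold changes were −0.33 and −0.37 after adrenalectomy (SE 0.31 and 0.29, edgeR adjusted p = 0.698 and 0.637) and −0.06 and −0.22 after GR deletion (SE 0.31 and 0.28, edgeR adjusted p = 0.98 and 0.783). Splicing of Xbp1 by IRE1 and translation of Atf4 control these factors after transcription, and neither is measured by these counts: the shortest of the annotated introns of the 4 Xbp1 transcripts is 300 bases, so that the short IRE1 intron was not counted apart.

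Ddit3 (chromosome 10, 127290774 to 127296288), which encodes the pro-apoptotic factor CHOP, was the only member higher in ADX DP without overlap. It had 43.4 and 46.5 CPM in ADX DP, against 35.2 and 25.6 CPM in Sham DP (0.56, SE 0.38, edgeR adjusted p = 0.593). GR KO DP had 21.8 and 43.8 CPM and enclosed the 32.6 and 39.3 CPM of Control DP (−0.13, SE 0.38, edgeR adjusted p = 0.935), and the sign turned without GR KO DP replicate 1 (0.29). Ddit3 overlaps Mars and a non-coding gene at its ends on the opposite strand. Trib3 (chromosome 2, 152337422 to 152344032), which inhibits AKT and is a target of ATF4 and CHOP, had 4.03 and 0.117 CPM in ADX DP (29 counts and 1 count), against 3.66 and 1.93 CPM in Sham DP. It had 2.84 and 2.14 CPM in GR KO DP, against 1.66 and 1.95 CPM in Control DP. At this depth its log2 fold changes of −0.44 (SE 1.24) and 0.46 (SE 1.23) had errors larger than themselves.

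**Figure D2:**
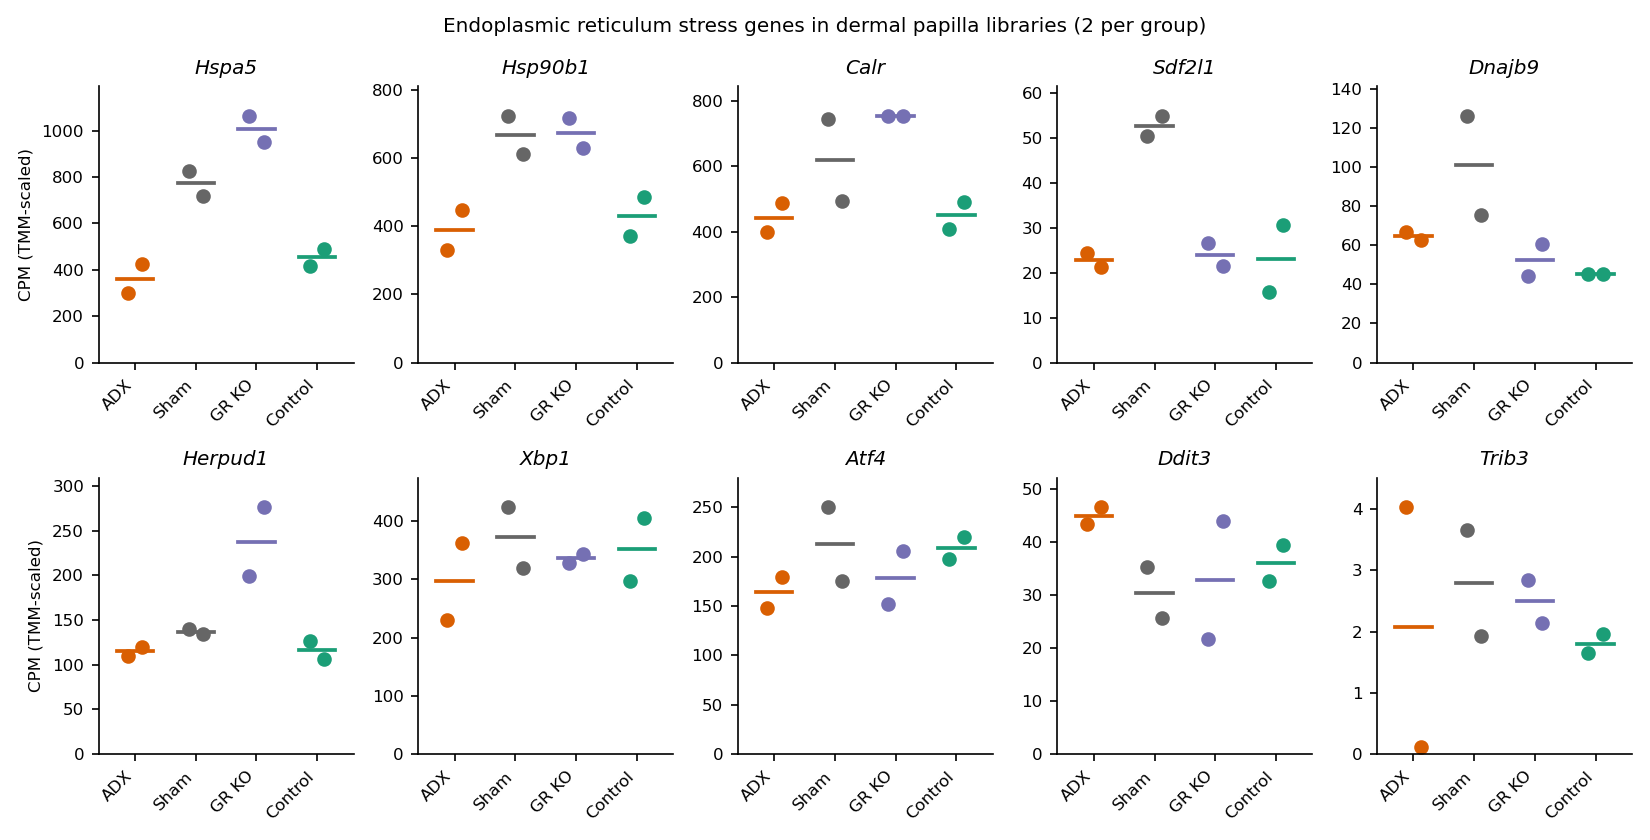
Level of each gene in TMM-scaled CPM (vertical axis from 0) in the 8 DP libraries (points) with the mean of each group (line), ADX left of Sham and GR KO left of Control. Hspa5 reaches 1064 and 950.2 CPM in GR KO and 298 and 424 CPM in ADX, while the libraries of Xbp1 and Atf4 overlap between all neighbouring groups.

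The effects of GR deletion and adrenalectomy were compared in DP by the difference of both log2 fold changes. Hspa5 passed this test: the effect of deletion exceeded that of adrenalectomy by 2.25 (SE 0.40, edgeR adjusted p = 0.0459). It was the only one of the 10 genes called, and 112 of all genes were (0.477%), 82 of them with a positive difference (0.349%). At an unadjusted p under 0.05 there were 5 of 10 (15.3% of all genes), and DESeq2 called 2, Hspa5 and Hsp90b1 (4.62% of all genes). Hsp90b1 (1.43, SE 0.40, edgeR adjusted p = 0.123, DESeq2 adjusted p = 0.034), Herpud1 (1.28, SE 0.37, edgeR adjusted p = 0.136) and Calr (1.23, SE 0.41, edgeR adjusted p = 0.184) had positive values that did not pass in edgeR. So did Sdf2l1 (1.26, SE 0.53) and Dnajb9 (0.85, SE 0.44), whereas Ddit3 had −0.70 (SE 0.54). The median of the 10 genes was 1.07, against 0.11 over all genes.

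The call for Hspa5 lay close to the threshold. DESeq2 gave an adjusted p = 1.39e-05, and without the filter on low counts the value was 2.11 (edgeR adjusted p = 5.76e-05). With median-of-ratios scaling it was 2.08 (edgeR adjusted p = 0.0505). The call was lost without either Sham replicate (0.0756 and 0.0883), either ADX replicate (0.0751 and 0.0956), either Control replicate (0.138 and 0.195) or GR KO replicate 1 (0.0563), and held without GR KO replicate 2 (0.0444). With protein-coding genes alone in the fit the value was 1.89 (edgeR adjusted p = 0.047). Over all these alternatives the difference lay between 1.89 and 2.42 and kept its sign. A shift on the log scale that both groups of an experiment share cancels in this test. An effect of surgery or deletion that depends on strain or tamoxifen would not cancel. The reference groups also differed in level: the mean of Hspa5 was 772 CPM in Sham DP, well above 454 CPM in Control DP (SD 75.5 and 52.1, n = 2 each). Strain, tamoxifen and surgery cannot be told apart in that gap.

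**Figure D3:**
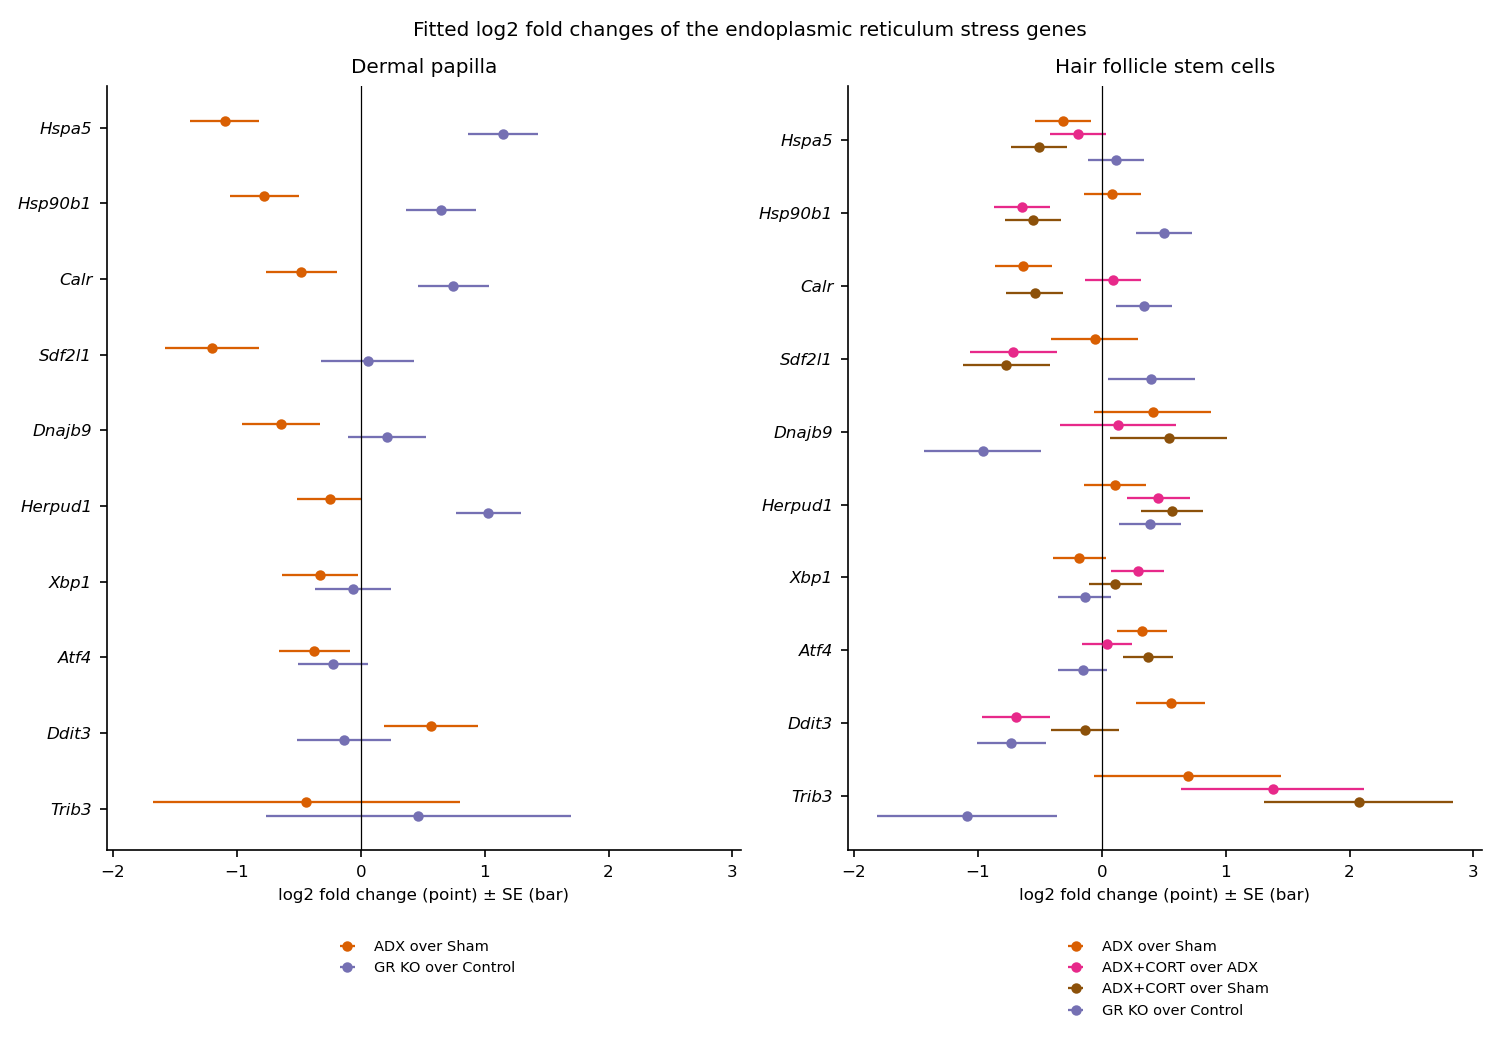
Fitted log2 fold change (point) and SE (bar) of each gene in 2 DP comparisons (left) and 4 HFSC comparisons (right). In DP the values of Hspa5, −1.10 and 1.15, stand on either side of 0, and Hsp90b1, Calr and Herpud1 lie on the same sides, whereas in HFSC those of Hspa5 lie between −0.51 and 0.11.

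DP counts were estimated per transcript, and the mix of Hspa5 transcripts varied across the libraries. Transcripts not annotated as protein-coding held 6.89% and 6.73% of its counts in ADX DP, against 10.1% and 6.41% in Sham DP, and 22.6% and 18.8% in GR KO DP, against 16.5% and 13.7% in Control DP. The most abundant of them over all libraries, the retained-intron transcript Hspa5-205, held 10.6% and 9% in GR KO DP. The coding transcript Hspa5-202 still held 74.5% to 91.8% of the counts in every DP library. Calr had a steady share of the retained-intron transcript Calr-204, at 25.8% to 32.4%, and Herpud1 was divided mainly between a pair of transcripts (24.1% to 62.6% and 20.4% to 57.5%). Estimates for transcripts that share most of their sequence are uncertain, and no test was run on these shares.

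Most genes of the secretory machinery outside the 10 had positive log2 fold changes in GR KO DP, where 56.4% of all genes were higher with a median of 0.17. Of 25 ER folding and translocation genes 1 rose, 0 fell and 24 did not pass in edgeR, 21 of 25 were higher, and the median log2 fold change was 0.77. Txndc5, an ER disulfide isomerase, had 587 and 437 CPM in GR KO DP, against 133 and 134 CPM in Control DP (1.94, SE 0.26, edgeR adjusted p = 0.0212). Of 18 ER-associated degradation genes 15 were higher with 0 called (median 0.53), and of 10 tested sensors and proteases of the response 7 were higher with 0 called (median 0.13, below that of all genes). After adrenalectomy the medians of these lists were −0.38, −0.25 and −0.22, against 0.08 over all genes, with 0 called in each.

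Many matrix proteins, the cargo of the ER in fibroblasts, rose in GR KO DP. Of 14 such genes 9 rose, 14 were higher and the median was 1.90, among them Postn (1898 and 3103 CPM in GR KO, against 267 and 411 CPM in Control, log2 fold change 2.88, SE 0.42, edgeR adjusted p = 0.0212), Col5a2 (1.88, SE 0.28, edgeR adjusted p = 0.0218) and Fbn1 (2.23, SE 0.41, edgeR adjusted p = 0.0373). Of 15 collagen-modifying ER proteins 2 rose and 14 were higher (median 0.79). These were Fkbp14, a collagen prolyl isomerase (120.1 and 122 CPM in GR KO, against 30.03 and 32.4 CPM in Control, 1.96, SE 0.33, edgeR adjusted p = 0.0312), and P4ha2, a prolyl hydroxylase subunit (1.64, SE 0.33, edgeR adjusted p = 0.0463). After adrenalectomy 12 of the 14 matrix genes were lower with 0 called (median −0.39). Summed levels of the matrix genes were 28644 to 33102 CPM in ADX DP, against 40399 to 47863 CPM in Sham DP. They were 89036 to 99649 CPM in GR KO DP, against 20840.2 to 31872 CPM in Control DP. In DP they ran in the same order of groups as Hspa5 up to the overlap of ADX and Control. In HFSC they were 7124 to 7503 CPM in ADX, against 11121 to 11390 CPM in Sham. They were also lower in GR KO HFSC, at 2877 to 4448 CPM, against 7486 to 8483 CPM in Control, where Hspa5 overlapped. The part of the matrix genes in the result was not tested.

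The PERK branch was mixed in DP. Of 26 tested ATF4 and CHOP target genes 0 rose and 1 fell in GR KO DP. There 17 were higher (56.4% of all genes), with a median of 0.23, against 0.17 over all genes. The gene that fell was Stc2, a secreted glycoprotein, with 12.7 and 8.48 CPM in GR KO, against 171 and 273 CPM in Control (−4.39, SE 0.49, edgeR adjusted p = 0.0165). In ADX DP 17 of 26 were lower with 0 called (median −0.37). The 27 listed targets summed to less in both comparisons: 1509 to 1672 CPM in GR KO, against 1964 to 2357 CPM in Control. They summed to 1434 to 1821 CPM in ADX, against 2276 to 2796 CPM in Sham. The 9 eIF2alpha kinases and phosphatase subunits had medians of 0.37 and −0.18 in these comparisons with 0 called in either.

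Cytosolic heat shock chaperones and glucocorticoid targets were mostly lower in ADX DP, as were the 10 genes, and also mostly lower in GR KO DP. Of 14 cytosolic heat shock chaperones 1 fell in GR KO DP, Hspb1 (169 and 142 CPM in GR KO, against 534 and 2229 CPM in Control, −3.15, SE 0.59, edgeR adjusted p = 0.0392). Of the 14, 8 were lower there (median −0.33), and their summed level was 4052 to 5664 CPM in GR KO, against 8263 to 22753 CPM in Control. In ADX DP 13 of the 14 were lower with 0 called (median −0.43, beside −0.46 for the 10 genes), and their summed level was 3077 to 3798 CPM in ADX, against 4385 to 5323 CPM in Sham. Of 12 glucocorticoid-induced genes 8 fell in GR KO DP (median −1.94), with Angptl4 (−2.70, SE 0.30, edgeR adjusted p = 0.0165), Tsc22d3 (−2.74, SE 0.39, edgeR adjusted p = 0.0212) and Per1 (−1.75, SE 0.29, edgeR adjusted p = 0.0312) first by p. In ADX DP 10 of 12 were lower with 0 called (median −1.51), and Mt1 (−1.52, SE 0.26, edgeR adjusted p = 0.139), Fkbp5 (−3.00, SE 0.52, edgeR adjusted p = 0.139) and Klf9 (−1.72, SE 0.33, edgeR adjusted p = 0.183) had the smallest p-values of all listed genes. Most glucocorticoid targets were thus below Sham and Control in ADX and GR KO DP. Hspa5, Hsp90b1 and Calr were instead lower in ADX and higher in GR KO without overlap, with 0 called in edgeR, while Sdf2l1 and Dnajb9 overlapped in GR KO.

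Of the GR KO DP calls named here, Stc2 and Angptl4 held in 10 of 10 alternatives, Tsc22d3 in 9, Txndc5, Postn and Col5a2 in 7, Fkbp14, Fbn1, Hspb1 and Per1 in 6 and P4ha2 in 5. In the difference between both DP effects, 5 genes of these related lists passed in edgeR. Postn (4.53, SE 0.58, edgeR adjusted p = 0.0245), Fkbp14 (2.86, SE 0.46, edgeR adjusted p = 0.0357), Txndc5 (2.31, SE 0.36, edgeR adjusted p = 0.0349) and Col5a2 (2.30, SE 0.39, edgeR adjusted p = 0.0408) were positive, like Hspa5, and Angptl4 was negative (−2.90, SE 0.41, edgeR adjusted p = 0.0312). Over the alternatives their adjusted p-values reached 0.0822 to 0.209.

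**Figure D4:**
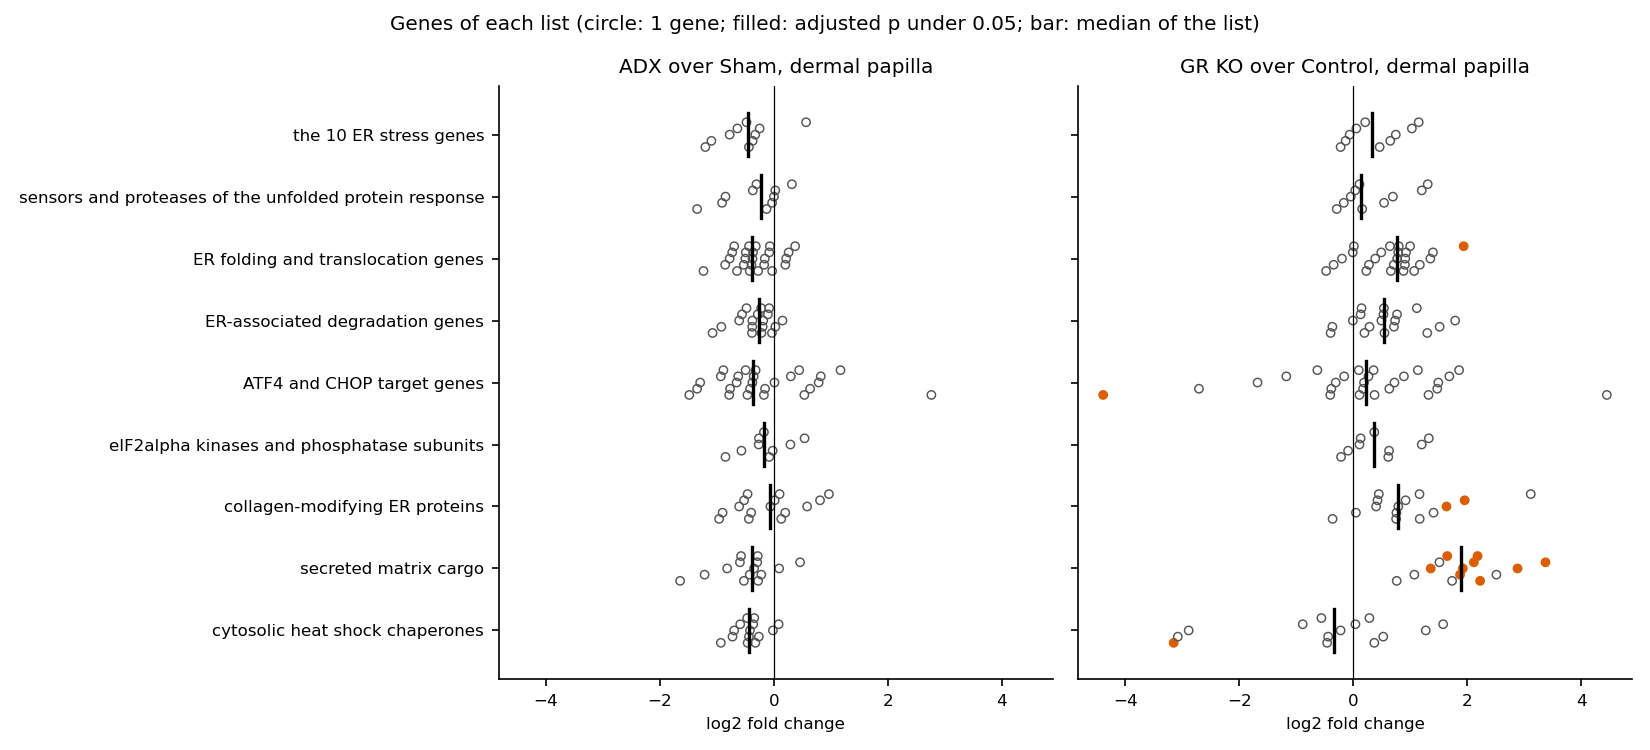
Log2 fold changes (horizontal axis) of single genes (circles, filled at an edgeR adjusted p under 0.05) in the 10 ER stress genes and 8 related lists, with the median of each list (bar), for ADX over Sham (left) and GR KO over Control (right) in DP. Matrix genes stand furthest to the right in GR KO, with a median of 1.90 and 9 filled circles, and the 10 ER stress genes have a median of 0.34 with none.

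Markers of other cells and immediate early genes, which cells switch on soon after a stimulus, differed with the DP comparisons. The summed level of 9 dermal fibroblast markers was 15289 to 16901 CPM in ADX DP, against 23675 to 28826 CPM in Sham DP, and 48667 to 56379 CPM in GR KO DP, against 12880 to 19421 CPM in Control DP. HFSC markers (12) summed to 1205 to 1625 CPM in ADX DP, against 3033 to 5256 CPM in Sham DP, and to 3441 to 4219 CPM in GR KO DP, against 762 to 982 CPM in Control DP. In both lists Sham lay above ADX and GR KO above Control, as for Hspa5. The fibroblast list shares Col1a1, Col3a1, Lum and Dcn with the matrix list. Postn, named above among the matrix genes, is also in the HFSC list and holds 1898 and 3103 CPM of its sum in GR KO DP, so that these lists are not independent of each other. Pericyte and smooth muscle markers (8) summed to 983 to 5685 CPM in ADX DP, against 348 to 428 CPM in Sham DP, and 10 differentiated epidermis markers to 263 to 449 CPM, against 1057 to 4076 CPM in Sham DP. Immune markers (9) reached 2676 CPM in GR KO DP replicate 1 and 42.8 CPM in replicate 2, against 168 to 322 CPM in Control DP, and Hspa5 had 1064 and 950 CPM in the same GR KO libraries. Plasma cells, which are rich in ER chaperones, are marked by 6 genes that summed to 10.1 to 57.2 CPM in GR KO DP, against 2.88 to 4.97 CPM in Control DP. They summed to 5.27 to 7.37 CPM in ADX DP, against 12.7 to 15.9 CPM in Sham DP. Derl3, among these markers, is also in the degradation list. Of the 3 plasma cell markers tested, 3 were higher in GR KO with 0 called (median 1.52), against 56.4% of all genes. In ADX 1 of them was higher and 2 were lower, with 0 called. Mzb1 and Igkc were at 0 in both GR KO and both Sham libraries, and Igkc also in both Control libraries. All 12 immediate early genes were lower in ADX DP with 0 called, 11 of them without overlap, against 19.4% of all genes. Their median was −0.65, against 0.08 over all genes, and they summed to 12290.0 to 17558 CPM in ADX, against 22039 to 25033 CPM in Sham. In GR KO DP 9 of the 12 were higher with 0 called, against 56.4% of all genes, and 5 were higher without overlap, against 31.6% of all genes. Their median was 0.27, against 0.17 over all genes. They summed to 8601 to 9524 CPM in GR KO, against 6058 to 8571 CPM in Control, a narrow gap. Both sums moved in the directions of Hspa5. The part of these lists in the results was not tested.

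In HFSC edgeR called 0 of the 10 genes in each of the 4 comparisons. By mean, Calr had the order GR KO, Sham, Control and ADX that it had in DP, with overlap between GR KO and both Sham and Control. Hspa5 and Hsp90b1 did not keep their DP order. After adrenalectomy Atf4, Ddit3 and Trib3 were higher without overlap, against 25.5% of all genes. Hspa5, Calr and Xbp1 were lower without overlap, against 23.9% of all genes. With corticosterone, Ddit3, Hsp90b1 and Sdf2l1 were lower than in ADX without overlap (25.8% of all genes). Xbp1, Trib3 and Herpud1 were higher (26.7% of all genes). In GR KO, Ddit3, Trib3 and Dnajb9 were lower than in Control without overlap (19.1% of all genes) and Hsp90b1 higher (19.3%). Medians of the 10 genes were 0.10, 0.07 and −0.01 in these comparisons and −0.01 in ADX+CORT over Sham, against 0, 0.002, 0.005 and 0.008 over the 15231 genes tested.

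For ADX against Sham edgeR called 45 of all genes (0.295%), 1 of the 10 members had an unadjusted p under 0.05 (15.2% of all genes), and DESeq2 called 0 members (4.87% of all genes). The 3 members higher and 3 lower without overlap stand beside 25.5% and 23.9% of all genes. For ADX+CORT against ADX edgeR called 0 of all genes (0%), 2 members had an unadjusted p under 0.05 (19.3% of all genes) and DESeq2 called 1, Hsp90b1 (7.79% of all genes). Here 3 members were higher and 3 lower without overlap, against 26.7% and 25.8%. For ADX+CORT against Sham edgeR called 0 of all genes (0%), 6 members had an unadjusted p under 0.05 (6.09% of all genes) and DESeq2 called 0 (0.335% of all genes), with 4 members higher and 4 lower without overlap, against 21.5% and 19.1%. Of these 6, Hspa5 (−0.51), Calr (−0.54), Hsp90b1 (−0.56) and Sdf2l1 (−0.77) were lower than in Sham. Herpud1 (0.57) and Trib3 (2.07) were higher. Their edgeR adjusted p-values were 0.768 to 0.806. For GR KO against Control edgeR called 150 of all genes (0.985%), 2 members had an unadjusted p under 0.05 (13.1% of all genes) and DESeq2 called 0 (4.33% of all genes), with 1 higher and 3 lower without overlap, against 19.3% and 19.1%.

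Hspa5 had 413 and 339 CPM in ADX+CORT HFSC, 468 and 391 CPM in ADX HFSC, and 518 and 550.2 CPM in Sham HFSC. It had 626 and 701 CPM in GR KO HFSC, against 525 and 702 CPM in Control HFSC. Sham lay above ADX, ADX overlapped ADX+CORT, and the deletion groups overlapped each other. The log2 fold changes were −0.31 for ADX over Sham (SE 0.23, edgeR adjusted p = 0.537), −0.19 for ADX+CORT over ADX (SE 0.23, edgeR adjusted p = 0.704), −0.51 for ADX+CORT over Sham (SE 0.23, edgeR adjusted p = 0.806) and 0.11 for GR KO over Control (SE 0.23, edgeR adjusted p = 0.92).

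Calr followed Hspa5 after adrenalectomy. It had 384 and 466 CPM in ADX+CORT HFSC, 395 and 402 CPM in ADX HFSC, and 597 and 640.3 CPM in Sham HFSC, so that both adrenalectomised groups lay below Sham and overlapped each other. The change was −0.63 in ADX over Sham (SE 0.23, edgeR adjusted p = 0.213, DESeq2 adjusted p = 0.0587). In GR KO HFSC it had 551 and 787 CPM, against 554 and 504 CPM in Control HFSC, an overlap (0.34, SE 0.23, edgeR adjusted p = 0.588).

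Hsp90b1 was lowest with corticosterone. It had 197 and 169 CPM in ADX+CORT HFSC, 339.6 and 230.4 CPM in ADX HFSC, and 262 and 275 CPM in Sham HFSC, with ADX+CORT below both other surgery groups. ADX+CORT over ADX gave −0.64 (SE 0.23, edgeR adjusted p = 0.149, DESeq2 adjusted p = 0.0432). GR KO HFSC had 323 and 357 CPM, against 235 and 246 CPM in Control HFSC, without overlap (0.50, SE 0.23, edgeR adjusted p = 0.372).

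Sdf2l1 had 33.5 and 36.6 CPM in ADX+CORT HFSC, 64.4 and 50.5 CPM in ADX HFSC, and 49.1 and 70.5 CPM in Sham HFSC. As with Hsp90b1, the corticosterone libraries lay below the other surgery libraries (ADX+CORT over ADX −0.71, SE 0.35, edgeR adjusted p = 0.291). Its values of 51.0 and 96.6 CPM in GR KO HFSC overlapped those of 38.6 and 73.0 CPM in Control HFSC. Dnajb9 had 16.4 and 12.6 CPM in ADX+CORT HFSC, 12.9 and 13.7 CPM in ADX HFSC, and 13.1 and 6.85 CPM in Sham HFSC, all overlapping. It was lower in GR KO HFSC, with 10.4 and 4.01 CPM, than in Control HFSC, with 15.0 and 13.1 CPM (−0.96, SE 0.47, edgeR adjusted p = 0.418). Herpud1 had 91.4 and 126 CPM in ADX+CORT HFSC, 72.6 and 85.9 CPM in ADX HFSC, and 69.3 and 78.0 CPM in Sham HFSC, with the corticosterone libraries highest. GR KO HFSC had 144 and 96.8 CPM, against 97.6 and 86.2 CPM in Control HFSC, an overlap.

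Xbp1 stayed within a narrow range. ADX+CORT HFSC had 177 and 199 CPM, ADX HFSC 137 and 171 CPM, and Sham HFSC 174 and 174 CPM, so that the corticosterone libraries were above both other groups. GR KO HFSC had 187 and 153 CPM, against 176 and 198 CPM in Control HFSC. Atf4 had 163 and 155 CPM in ADX+CORT HFSC, 165 and 143 CPM in ADX HFSC, and 125 and 121 CPM in Sham HFSC, with Sham below both adrenalectomised groups (ADX over Sham 0.33, SE 0.20, edgeR adjusted p = 0.465). GR KO HFSC had 148 and 176 CPM, against 174 and 187 CPM in Control HFSC.

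Ddit3 had 42.2 and 44.5 CPM in ADX+CORT HFSC, 74.8 and 65.2 CPM in ADX HFSC, and 60.3 and 34.8 CPM in Sham HFSC. ADX was above both other surgery groups, which overlapped each other. The log2 fold changes were 0.56 for ADX over Sham (SE 0.28, edgeR adjusted p = 0.361), −0.69 for ADX+CORT over ADX (SE 0.28, edgeR adjusted p = 0.192) and −0.14 for ADX+CORT over Sham (SE 0.28, edgeR adjusted p = 0.993). The first 2 share the ADX libraries. GR KO HFSC had 62.5 and 46.4 CPM, against 82.8 and 97.7 CPM in Control HFSC, and Control lay above all other HFSC groups (GR KO over Control −0.73, SE 0.28, edgeR adjusted p = 0.266).

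Trib3 was low throughout HFSC, at 2.39 and 5.97 CPM in ADX+CORT HFSC, 1.69 and 1.52 CPM in ADX HFSC, and 1.06 and 0.918 CPM in Sham HFSC. The groups did not overlap, and corticosterone was furthest from Sham (2.07, SE 0.76, edgeR adjusted p = 0.768), on 45 and 110 counts in ADX+CORT, against 18 and 13 counts in Sham. GR KO HFSC had 2.18 and 3.46 CPM, against 5.01 and 6.99 CPM in Control HFSC (−1.09, SE 0.73, edgeR adjusted p = 0.585).

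**Figure D5:**
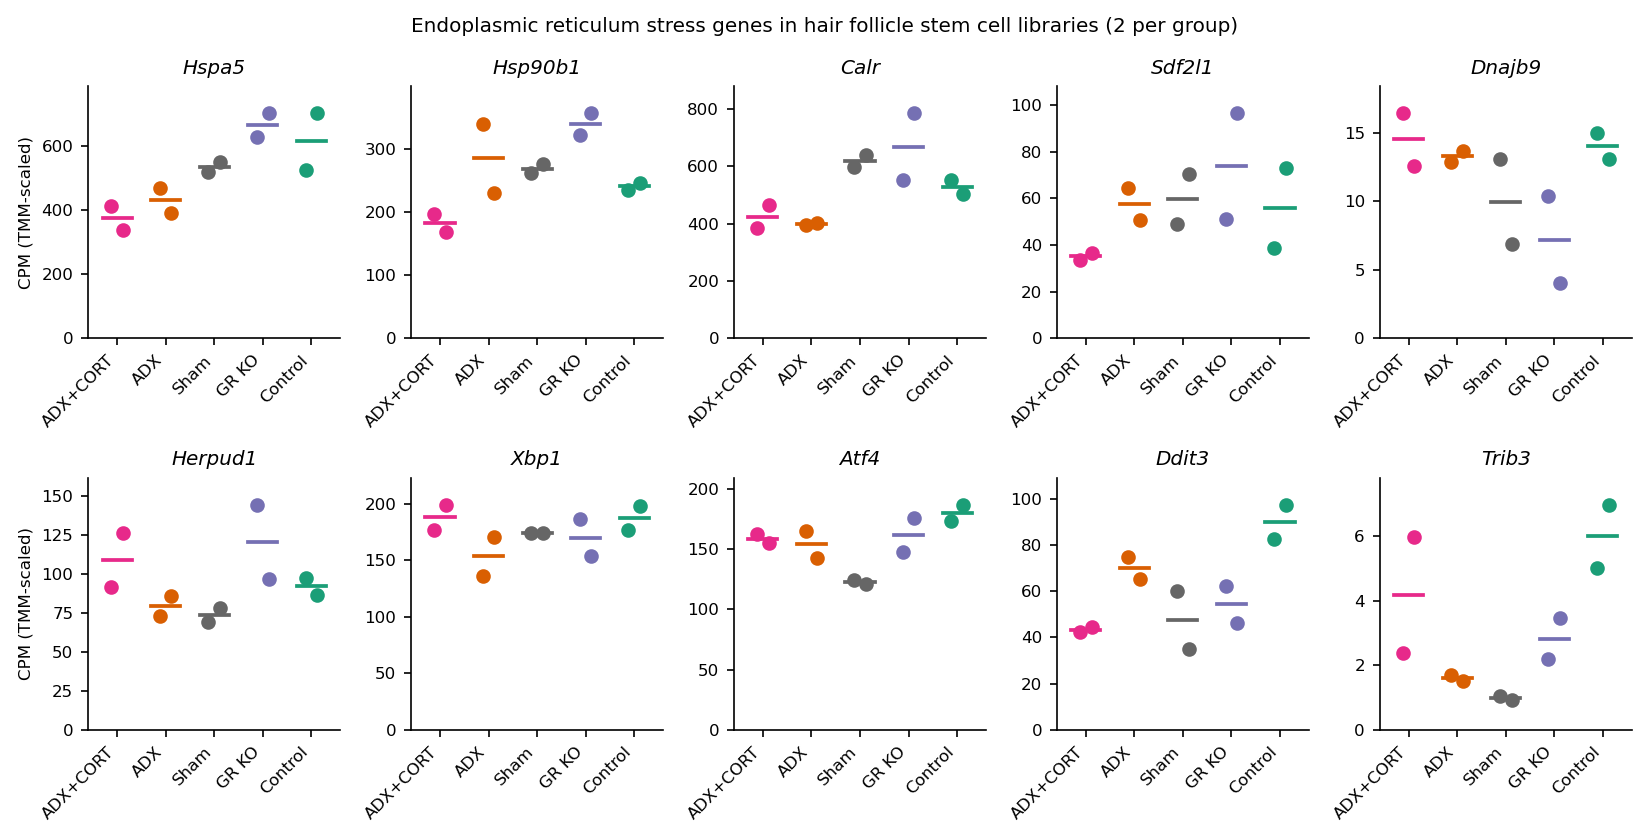
Level of each gene in TMM-scaled CPM (vertical axis from 0) in the 10 HFSC libraries (points) with the mean of each group (line), ADX+CORT, ADX and Sham from left to right, then GR KO and Control. Ddit3 stands at 74.8 and 65.2 CPM in ADX, against 42.2 and 44.5 CPM in ADX+CORT, and Hsp90b1 is lowest in ADX+CORT at 197 and 169 CPM.

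For the difference between the effects of GR deletion and adrenalectomy in HFSC, edgeR called 0 of the 10 genes and 0 of all genes (0%), 2 members had an unadjusted p under 0.05 (10.6% of all genes), and DESeq2 called 0 members (0.617% of all genes). Ddit3 had −1.29 (SE 0.39, edgeR adjusted p = 0.376) and Calr 0.97 (SE 0.32, edgeR adjusted p = 0.376). Hspa5, which passed in DP, had 0.43 here (SE 0.32, edgeR adjusted p = 0.665). The values of DP and HFSC were not tested against each other.

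Few related genes passed the test in HFSC. Of 24 tested ER folding and translocation genes 0 were called in any of the 4 comparisons, with medians of −0.18 for ADX over Sham, −0.04 for ADX+CORT over ADX, −0.23 for ADX+CORT over Sham and 0.10 for GR KO over Control. Likewise 0 of the 18 ER-associated degradation genes, 10 tested sensors and proteases, 26 tested ATF4 and CHOP targets and 9 eIF2alpha kinases and phosphatase subunits were called. The ATF4 and CHOP targets had medians of 0.33, 0.02, 0.29 and 0.28 in the same order of comparisons. Genes that passed in GR KO HFSC were the collagen-modifying ER proteins Fkbp10 (17.3 and 24.6 CPM in GR KO, against 62.2 and 55.6 CPM in Control, −1.49, SE 0.26, edgeR adjusted p = 0.0327) and P3h2 (−1.49, SE 0.31, edgeR adjusted p = 0.0425), 2 of the 14 tested, and the cytosolic chaperones Hspa1b (−1.63, SE 0.30, edgeR adjusted p = 0.0327) and Hspb1 (−1.24, SE 0.26, edgeR adjusted p = 0.0421), 2 of 14. All 4 fell.

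After adrenalectomy in HFSC the immediate early gene Nr4a1 rose (262 and 325 CPM in ADX, against 107 and 97.7 CPM in Sham, 1.52, SE 0.27, edgeR adjusted p = 0.0439) and so did Angptl4 of the glucocorticoid list (9.99 and 109 CPM in ADX, against 1.64 and 3.39 CPM in Sham, 4.57, SE 0.83, edgeR adjusted p = 0.0453). In ADX+CORT over ADX none of the listed genes passed, and Mt2 (−1.71, SE 0.34, edgeR adjusted p = 0.0573), Hspa1b (1.40, SE 0.30, edgeR adjusted p = 0.0573) and Mt1 (−1.43, SE 0.32, edgeR adjusted p = 0.06) had the smallest p-values. In ADX+CORT over Sham they were Angptl4 (4.89, SE 0.84, edgeR adjusted p = 0.191), Hspa1b (1.58, SE 0.30, edgeR adjusted p = 0.227) and Nr4a1 (1.27, SE 0.27, edgeR adjusted p = 0.333). For the difference between both effects in HFSC they were Nr4a1 (−2.61, SE 0.38, edgeR adjusted p = 0.104), Dcn (−2.74, SE 0.52, edgeR adjusted p = 0.206) and Atf3, a stress factor next to CHOP (−2.57, SE 0.49, edgeR adjusted p = 0.207). Adjusted p-values of the calls in HFSC reached 0.151 to 0.252 over the alternatives.

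Marker levels differed between HFSC groups too. The summed level of 12 HFSC markers was 50397 to 52304 CPM in ADX+CORT, 27923 to 38377 CPM in ADX and 53360.5 to 58032 CPM in Sham, and 27187 to 37734 CPM in GR KO, against 54345 to 61083 CPM in Control. Cytosolic heat shock chaperones summed to 4505 to 4660 CPM in GR KO, against 6535 to 7321 CPM in Control, and the 12 immediate early genes to 8297 to 14236 CPM, against 17354 to 23653 CPM in Control, in the comparison in which Ddit3 and Trib3 were lower. In ADX over Sham, where Atf4, Ddit3 and Trib3 were higher, all 12 immediate early genes were higher too, against 49.6% of all genes. Their median was 0.46, with Nr4a1 called, and they summed to 13107 to 21952.5 CPM in ADX, against 12180 to 12453 CPM in Sham. Immune markers separated the experiments, with 60.2 to 170 CPM in the 6 surgery libraries and 2282 to 2772 CPM in the 4 deletion libraries. The part of these lists in the results was not tested.

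Across libraries Hspa5 varied with some of the other chaperones more than with the rest. The Pearson correlation of log2 CPM with Hspa5 over the 8 DP libraries was 0.96 for Hsp90b1, 0.92 for Calr and 0.79 for Herpud1, and it was 0.50 for Xbp1, 0.39 for Sdf2l1, 0.26 for Trib3, 0.23 for Atf4, 0.16 for Dnajb9 and −0.54 for Ddit3. Over the 10 HFSC libraries it was 0.71 for Hsp90b1, 0.69 for Calr and 0.72 for Sdf2l1, 0.29 for Ddit3, 0.24 for Atf4, 0.10 for Trib3, −0.03 for Herpud1, −0.07 for Xbp1 and −0.54 for Dnajb9. Among 11740 DP genes with a mean of at least 5 CPM, the highest correlations with Hspa5 were those of Golph3 (0.99), Mccc1 (0.99), Zgpat (0.98), Bzw1 (0.98) and Rnf6 (0.97), and with Ddit3 those of Timm17b (0.94), Gtdc1 (0.91), Zfp704 (0.91), Ahi1 (0.89) and Rsg1 (0.89). Among 10550 HFSC genes they were Dcp1b (0.95), Cdkn2aipnl (0.94), Lyve1 (0.92), Acat1 (0.902) and Isoc1 (0.89) for Hspa5, and Tbc1d19 (0.96), Slc35a1 (0.94), Ccdc59 (0.89), Gsdmd (0.89) and Hpgd (0.88) for Ddit3. None of the 5 genes named for Hspa5 in DP is among its 5 in HFSC. Libraries of a group share their treatment and libraries of an experiment their strain, so these values describe 8 or 10 points that are not independent.

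Genes outside the 10 can hold the same elements. In DP 22 tested genes outside the 10 had ERSE in a promoter window, and 14 were higher in GR KO than in Control (median 0.40, against 0.17 over all genes). Without overlap 10 were higher and 2 lower, against 31.6% and 20% of all genes. In ADX 7 of the 22 were higher than in Sham (median −0.33, against 0.08 over all genes), with 3 higher and 6 lower without overlap, against 23.9% and 19.4% of all genes, and the median of the difference between both effects was 0.92. Of 9 such genes with ERSE-II 4 were higher in GR KO DP (median −0.19). In HFSC the 16 tested genes with ERSE had medians of −0.25 for ADX over Sham, 0.45 for ADX+CORT over ADX, −0.06 for ADX+CORT over Sham and 0.11 for GR KO over Control. None of these genes passed in edgeR in any comparison. Some are also in the related lists above, such as Creld2 among the ER folding genes and Derl3 among the degradation genes, so that these sets are not independent.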

How the data were processed

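RNA of sorted cells was made into SMART-Seq v4 and Nextera XT libraries, which keep no strand, per the labels' protocols. DP files hold estimated counts per transcript, deposited by the authors; Salmon and the mm10 build are named in the submitters' processing notes. These were summed to gene symbols by looking up the transcript identifiers in a GENCODE annotation, and rounded to whole numbers. Of 134967 transcripts 133201 matched with their version number, and the others were looked up without it. No match was found for 150 transcripts (at most 0.0752% of a library's counts). HFSC files hold whole read counts per gene, deposited by the authors and made with featureCounts 1.6.1 at a minimum mapping quality of 30, per the file headers. In each of 2 HFSC files 27 gene names that differed from those in the other files were restored from the coordinates beside them.

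DP and HFSC were fitted apart with edgeR 4.0.16 in R 4.3.3: TMM scaling, filterByExpr by group, a quasi-likelihood F test with all groups of a cell type in the fit, and Benjamini-Hochberg adjustment over all genes tested (threshold 0.05). Variation between replicate libraries beyond counting noise was estimated at 54.0% for DP (4 residual degrees of freedom) and 38.7% for HFSC (5). The procedure was tested on simulated data. The alternatives were DESeq2 1.42.0, scaling by median-of-ratios, fits with every gene kept, with a replicate block, with protein-coding genes alone or with the compared groups alone, and leaving out each library. Replicates differed by more than counting noise in every group. Of each related list, up to 3 genes per comparison with the smallest adjusted p past the threshold were named, or, where none of any list passed, the 3 with the smallest p. The members and lists were chosen with earlier results of these data known. Promoter windows came from RefSeq (GRCm38.p6). Cebpd, Ighm and Igkc were not analysed here in HFSC.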

Additional observations from a re-analysis of the deposited data

Results flagged for a closer look

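Hspa5 in DP was singled out because the effect of GR deletion and that of adrenalectomy differed by a test of the difference itself, at 2.25 on the log2 scale (SE 0.40, edgeR adjusted p = 0.0459). GR deletion gave 1.15 and adrenalectomy −1.10, each on 2 libraries per group.

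Trib3 was singled out because both GR KO libraries lay above both Control libraries in DP (log2 fold change 0.46, SE 1.23) and below them in HFSC (−1.09, SE 0.73). The difference was not tested, since the cell types were counted and fitted apart, and the DP values rest on 21 to 35 counts per library.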

How the results depend on the processing

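Of 820 log2 values of the 10 genes under the alternatives, 783 had the sign given in the report; those with protein-coding genes alone were added after seeing the data. The number of genes called by edgeR moved with the processing, and the cause was not tested. Without the filter on low counts it was 894 for ADX DP (4 in the report), 1456 for GR KO DP (361), 888 for ADX HFSC (45), 1309 for ADX+CORT against ADX (0), 184 for ADX+CORT against Sham (0) and 840 for GR KO HFSC (150). DESeq2 called 436, 1389, 742, 1186, 51 and 660 in the same order. With the compared groups alone it was 0 for ADX DP, 142 for GR KO DP, 93 for ADX HFSC and 2 for ADX+CORT against Sham. Leaving out a library gave 1 to 12 for ADX DP, 19 to 226 for GR KO DP, 0 to 235 for ADX HFSC, 0 to 549 for ADX+CORT against ADX, 0 to 4 for ADX+CORT against Sham and 5 to 336 for GR KO HFSC. Of the 10 genes, 1 was called without the filter in each DP comparison (Hspa5), DESeq2 called 1 in ADX DP, 2 in GR KO DP, 2 in the DP difference and 1 in ADX+CORT against ADX, and in the DP difference median-of-ratios scaling called 0 and leaving out a library 0 to 1. That scaling moved the median of all genes in the DP difference to −0.06, against 0.11, and so did the fit of protein-coding genes alone, whose median in GR KO DP was 0 (0.17 over all genes).

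The libraries share only a replicate number: correlations of same-numbered deviations lay between −0.19 and 0.32. With the replicate block edgeR called 10 genes in ADX DP and 9 in ADX HFSC, and Hspa5 in the DP difference had 2.26 (edgeR adjusted p = 0.0417). Under the block Sdf2l1 in ADX HFSC had 0.005.

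Signs turned as follows, none of them in a called value. Sdf2l1 in GR KO DP had −0.0382 with median-of-ratios scaling, −0.10 without the filter, −0.038 in DESeq2 and −0.0566 with the compared groups alone, and Atf4 in the DP difference had −0.0208 with that scaling and −0.0209 in DESeq2. With protein-coding genes alone Sdf2l1 and Dnajb9 in GR KO DP had −0.16 and −0.0011, and Atf4 and Xbp1 in the DP difference −0.21 and −0.0902. Leaving out a library gave, in ADX DP, −4.52 to 0.57 for Trib3. In GR KO DP it gave −0.71 to 0.29 for Ddit3, −0.50 to 0.43 for Sdf2l1 and −0.0288 to 0.43 for Dnajb9. In the DP difference it gave −0.0827 to 0.44 for Atf4, −0.0932 to 0.40 for Xbp1 and −0.27 to 4.98 for Trib3. In ADX HFSC it gave −0.22 to 0.35 for Hsp90b1, −0.30 to 0.23 for Sdf2l1 and −0.0091 to 0.22 for Herpud1. In ADX+CORT against ADX it gave −0.0708 to 0.16 for Atf4, −0.083 to 0.23 for Calr and −0.0751 to 0.28 for Dnajb9. In ADX+CORT against Sham it gave −0.48 to 0.32 for Ddit3 and −0.0091 to 0.19 for Xbp1. In GR KO HFSC it gave −0.0829 to 0.33 for Hspa5 and −0.13 to 0.93 for Sdf2l1. In the HFSC difference it gave −0.11 to 0.20 for Xbp1, −0.0771 to 0.97 for Sdf2l1 and −0.0307 to 0.55 for Herpud1.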
